A study of Homo sapiens with 36 samples.

Results

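The 80S fraction of a polysome gradient was compared between HUES6 cells that lacked RBPMS (KO) and unmodified HUES6 cells (WT). HUES6 is an established line of human embryonic stem cells. The members were the transcripts that reached 10 TPM in 3 or more of the 6 80S libraries, 3 KO and 3 WT, and 6464 of the 223367 Ensembl transcripts in the table met this rule. TPM is an abundance unit in which estimated reads are divided by the length of the transcript and every library is brought to a total of 1000000. The series holds 36 libraries, with 3 replicate numbers for each genotype. Each number of a genotype has an unfractionated Input sample and the 40S, 80S, disome, Polysome1 and Polysome2 fractions. By their titles alone, the 6 libraries that share a genotype and a number are taken here as 1 of 6 cultures. Both genotypes were grown in FTDA medium and received cycloheximide at 100 ng/ml for 5 min before lysis, and the treatment of all samples is labelled control. The sources used here do not give whether the KO cultures came from 1 clone or several, or whether replicates were grown separately, so p-values measure only the spread between these samples.

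An 80S monosome is a single assembled ribosome on an mRNA. Its fraction can hold mRNAs with short coding regions, mRNAs that are initiated rarely and mRNAs on which a ribosome occupies an upstream reading frame, while mRNAs that carry several ribosomes sediment further down the gradient. Cycloheximide blocks the movement of elongating ribosomes and so keeps them on the mRNA during lysis. RBPMS is an RNA-binding protein with an RNA recognition motif, known for regulating splicing in smooth muscle cells and the fate of bound transcripts in the cytoplasm. Equal amounts of RNA entered each library, so a TPM value gives a transcript's share of the fraction and not its amount. Less of a transcript and more of all others cannot be told apart on this scale. No gene symbols accompany the transcript IDs, so transcripts are given by their versioned Ensembl ID. RBPMS itself, markers of embryonic stem cells and of other cell types, and pathway lists were not analysed here, and the knockout of each KO culture, replicate 3 included, rests on the labels alone.

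The 6 libraries fell into unequal company before any test. Over the 6464 members, KO replicates 1 and 2 resembled each other, and KO replicate 3 resembled WT. Pearson's r of log2(TPM + 1) was 0.888 between KO replicates 1 and 2. It was 0.403 between KO replicates 1 and 3 and 0.507 between KO replicates 2 and 3. KO replicate 3 correlated with WT replicates 1, 2 and 3 at 0.875, 0.846 and 0.745, and the WT libraries correlated among themselves at 0.807 to 0.913. KO replicate 1 correlated with the same WT libraries at 0.347, 0.276 and 0.463, and KO replicate 2 did so at 0.437, 0.378 and 0.535. Over the 51052 transcripts that reached 1 TPM in 3 or more of all 36 libraries, a set chosen without the 10 TPM rule, r with the WT mean was 0.604, 0.702 and 0.909 for KO replicates 1, 2 and 3 and 0.895 to 0.931 for the WT libraries. These are descriptions across transcripts, which are not independent replicates, and sequencing depth is unknown for all libraries.

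**Figure D1:**
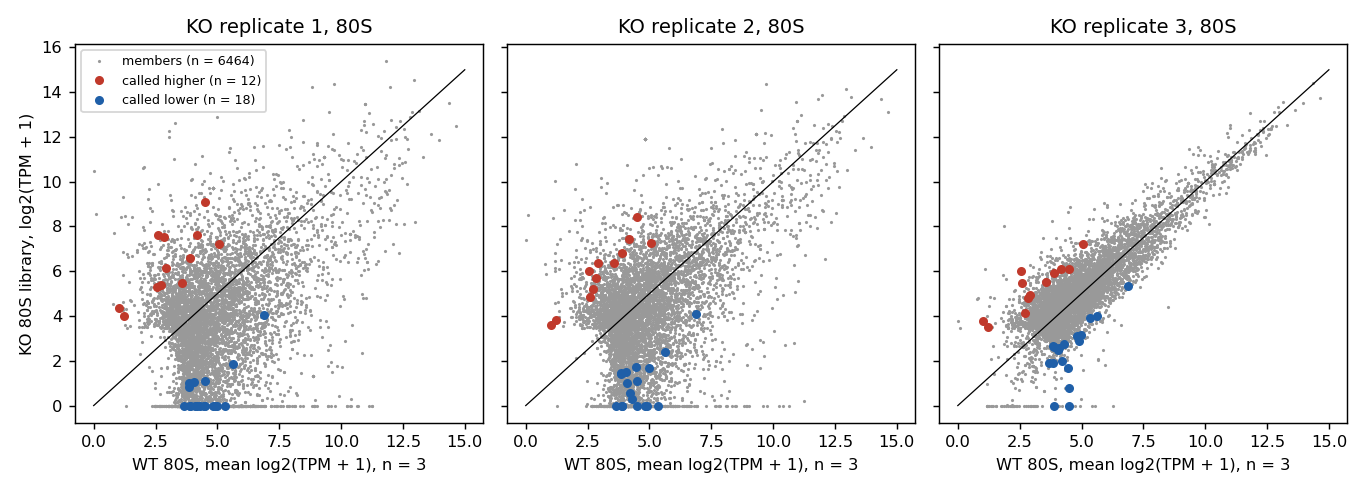
Level of each of the 6464 members in the 3 KO 80S libraries (vertical axis, log2(TPM + 1)) against the mean of the 3 WT 80S libraries (horizontal axis, same scale), with the line of equality. Red and blue points are the 12 higher and 18 lower members at a limma adjusted p under 0.05. KO replicate 3 follows the line (r = 0.868 with the WT mean), while KO replicates 1 and 2 scatter widely (0.383 and 0.476).

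The same split was seen in the most abundant transcripts. Of the 100 most abundant transcripts of the WT 80S mean, 84 were among the 100 most abundant of KO replicate 3, 44 among those of KO replicate 2 and 39 among those of KO replicate 1. For WT replicates 1, 2 and 3, each set against the mean of the other 2 WT libraries, the shared numbers were 85, 87 and 76. The leading transcripts of the KO replicate 3 monosome fraction were thus shared with WT about as often as those of a WT library were.

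KO replicates 1 and 2 listed more members at or near 0 than the other libraries. KO replicate 1 listed 841 members at 0 and 1272 below 1 TPM, and KO replicate 2 listed 462 at 0 and 801 below 1 TPM. In KO replicate 3, 40 members were listed at 0 and 64 lay below 1 TPM, between the WT libraries, which listed 34, 73 and 44 at 0 and 58, 104 and 80 below 1 TPM. The 10 TPM rule bears on these counts, since it admits transcripts present in WT and KO replicate 3 and not those present in KO replicates 1 and 2 alone, of which 882 reached 10 TPM. Over the 51052 transcripts, 21822, 17994 and 8268 were listed at 0 in KO replicates 1, 2 and 3, and 7564, 7879 and 9350 in WT. A listed 0 is the estimate in the table, and no read count stands behind it here.

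The way members met the rule shows the same libraries. All 6 libraries reached 10 TPM for 2348 members (36.3%). A further 1261 reached it in all 3 WT libraries and in a single KO library, which was KO replicate 3 for 1230 of them, KO replicate 2 for 22 and KO replicate 1 for 9. Of 333 members that reached 10 TPM in 1 WT and 2 KO libraries, the KO libraries were replicates 1 and 2 for 219. In all, 269 members passed through the 3 WT libraries alone and 202 through the 3 KO libraries alone. Those 471 had to differ between the genotypes by the way they were chosen, and their difference is no finding. The third highest of the 6 values was 10.0006 TPM for the nearest member inside the limit and 9.9969 TPM for the nearest transcript outside it. Within 1 TPM of the limit lay 451 members, at 10 to 11 TPM, and 520 transcripts outside, at 9 to 10 TPM.

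Members covered a wide range of abundance. The median of their mean over the 6 libraries was 24.3 TPM, 1058 members had a mean of at least 100 TPM and 177 of at least 1000 TPM, and the highest mean was 18378 TPM. Together they made up 91.0%, 91.8% and 92.0% of the TPM of WT replicates 1, 2 and 3, and 85.2%, 89.0% and 90.1% of that of KO replicates 1, 2 and 3. These shares follow in part from the rule, which used the same 6 libraries, and were not tested. Among the members, 397 had the same values as another member in all 6 libraries. For 393 members the values equalled those of another member in all 36 libraries. Such IDs cannot be told apart by their values.

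The number of transcripts at 10 TPM was 6393, 6154 and 6296 in WT replicates 1, 2 and 3, and 5235, 5672 and 7077 in KO. The KO libraries lay on both sides of WT, and the means of 5995 ± 962 and 6281 ± 120 transcripts (SD, n = 3) did not differ beyond the spread (two-sided exact permutation p = 0.7, adjusted 0.8 over 5 tests). The difference was -286 transcripts, 94 without KO replicate 1 and 796 with KO replicates 1 and 2 both left out. The 10 most abundant transcripts took 13%, 12.9% and 14.5% of WT libraries and 18.1%, 13.3% and 11.2% of KO libraries, an overlapping range again (exact permutation p = 0.8, adjusted 0.8). The direction of that difference, 0.703 percentage points, turned to -1.24 without KO replicate 1. Synthetic spike-in RNAs of the External RNA Controls Consortium (ERCC), 92 rows of the table, summed to 36.5, 31.9 and 18.5 TPM in WT and to 413, 211 and 107 TPM in KO. Most of the 92 were listed at 0, with 19, 23 and 15 above 0 in WT and 30, 30 and 28 in KO. The ERCC share was higher in every KO library than in any WT library, with means of 28.9 ± 9.34 and 244 ± 155 TPM (SD, n = 3) and a log2 difference of 2.92 (exact permutation p = 0.1, adjusted 0.5), and 0.1 is the smallest p that 3 against 3 can give. In KO it was highest in replicate 1 and lowest in replicate 3. Scaling to the ERCC total changed the results below, as given beside them.

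Each library was next set against WT, member by member, on the log2(TPM + 1) scale. In KO replicate 1, 52.4% of members were lower than the WT mean by log2 1 or more and 20.1% were higher. In KO replicate 2 these shares were 42.5% and 21.7%. In KO replicate 3 they were 9.05% and 16.4%, with more members above WT than below, and the share above was outside the WT range. For WT replicates 1, 2 and 3, each against the other 2, the shares lower were 5.45%, 7.44% and 10.7% and the shares higher 8.21%, 5.06% and 12.2%. The median difference over members was -1.15 in KO replicate 1, -0.57 in KO replicate 2 and 0.18 in KO replicate 3, so the KO libraries did not lie on one side of WT. The excess of lower over higher members in KO replicates 1 and 2 is in part set by the 10 TPM rule, as above. Over the 51052 transcripts the shares lower were 27.2%, 22.6% and 5.31% in KO replicates 1, 2 and 3, the shares higher 12.3%, 10.9% and 9.97%, and the medians -0.39, -0.31 and 0.04.

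**Figure D2:**
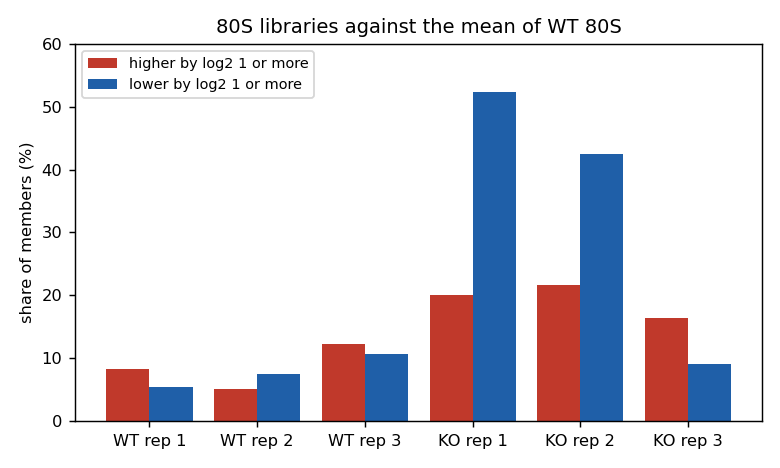
Share of the 6464 members (vertical axis, percent) that lay at least log2 1 above (red) or below (blue) the WT 80S mean in each 80S library, with WT libraries set against the mean of the other 2. KO replicates 1 and 2 have 52.4% and 42.5% of members below WT, and KO replicate 3 has 9.05%, within the WT range of 5.45% to 10.7%.

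The rule also bears on how many members were lower or higher in both KO replicates 1 and 2, so these numbers are not set against each other. Most members lower in both KO replicates 1 and 2 were not lower by log2 1 in replicate 3. Chosen on their values, so with no test, 2586 members lay at least log2 1 below the WT mean in both replicates 1 and 2, with median differences of -3.50 and -2.76. Their median difference was -0.14 in KO replicate 3. Of them, 379 (14.7%) were lower by log2 1 there too, 1938 lay within log2 1 of WT and 269 were higher by log2 1. Of all members, 9.05% were lower by log2 1 in KO replicate 3. The 1062 members higher in both replicates 1 and 2 had median differences of 2.16 and 2.09, and in KO replicate 3 of 0.62. In replicate 3, 355 of them (33.4%) were higher by log2 1, 604 lay within log2 1 of WT and 103 were lower by log2 1. Of all members, 16.4% were higher by log2 1 there. Both sets thus went with replicates 1 and 2 more often than members as a whole did. The same WT mean enters all these differences, and this was not tested.

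The same members were read in the other fractions of the same cultures, which did not enter their choice. The 2586 had median differences from the WT mean of their own fraction of -2.69 and -1.36 in the Input of KO replicates 1 and 2, and of -2.73 and -2.25 in Polysome2. In KO replicate 3 the medians were -0.12 and -0.01 in those fractions. In 40S they were -2.06, -1.24 and 0.87 in KO replicates 1, 2 and 3. All members together had 40S medians of -0.69, 0.34 and 0.75, so the 0.87 was near the level of all members in that library. In KO replicates 1, 2 and 3, medians over all members were -1.04, -0.3 and 0.0 in Input. They were -0.83, -0.64 and 0.19 in Polysome2. The 1062 had median differences of 2.80 and 2.25 in the Input of KO replicates 1 and 2, and of 2.45 and 2.14 in Polysome2. They were 0.21 and 0.74 in KO replicate 3. The pattern of the KO 80S libraries was therefore also found in Input and Polysome2 libraries of the same cultures and was not seen in monosomes alone. In the disome libraries the 1062 had medians of -0.55 and 1.92 in KO replicates 1 and 2. All members together had medians of -3.12 and -0.67 there. In the KO replicate 1 disome library 86.3% of all members were lower by log2 1, and the 1062 were less low than members as a whole. TPM has the same total in every library, so these medians describe the members and not a fall of the whole library.

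Set against the WT mean of each fraction, KO replicate 3 80S correlated best with WT 80S, at 0.868, and WT replicates 1 and 2 with the mean of the other WT 80S libraries, at 0.904 and 0.905. WT replicate 3 80S was nearer to WT disome (0.896) than to the other WT 80S libraries (0.827). KO replicates 1 and 2 reached at most 0.491 and 0.533, both with WT 40S, and had 0.112 and 0.144 with WT Input. Against their own cultures the order was another: KO replicate 1 80S had r between 0.858 and 0.914 with the other 5 libraries of its culture, and KO replicate 2 80S between 0.801 and 0.955. For KO replicate 3 80S the range was 0.796 to 0.953. For WT replicates 1, 2 and 3 it was 0.621 to 0.86, 0.613 to 0.855 and 0.507 to 0.92.

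**Figure D3:**
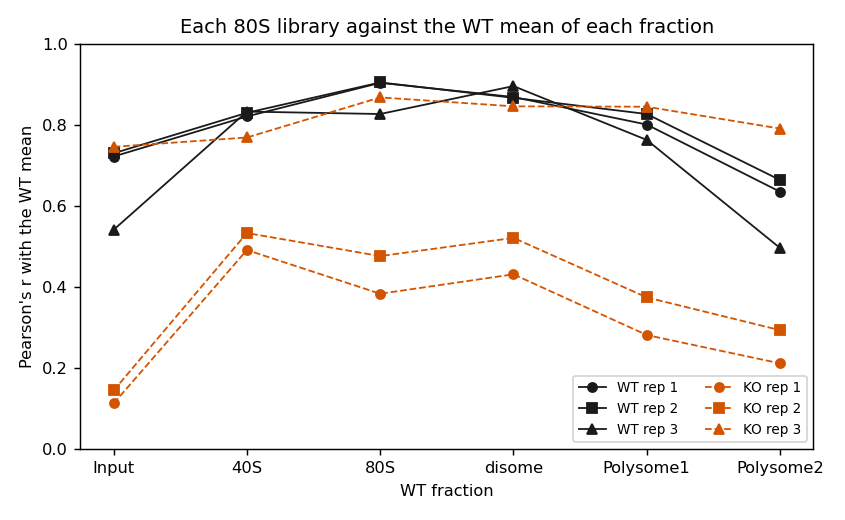
Pearson's r over the 6464 members (log2(TPM + 1)) between each 80S library and the WT mean of each of the 6 fractions, with a WT library left out of its own 80S mean. Black solid lines are WT and orange dashed lines KO. KO replicate 3 runs with the WT libraries, and KO replicates 1 and 2 reach at most 0.491 and 0.533 at any fraction.

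KO and WT were then compared by a test across all transcripts. limma was fitted to log2(TPM + 1) of all 36 libraries with 12 group means, on the 51052 transcripts that reached 1 TPM in 3 libraries or more, and p-values were adjusted over all of them by the Benjamini-Hochberg method with a threshold of 0.05. In the 80S fraction 12 members (0.186%) rose and 18 (0.278%) fell in KO, 30 of 6464 or 0.464%. Over all tested transcripts 0.599% were called, 0.0627% higher and 0.537% lower. The difference between these shares was not tested. The median log2 difference was -0.53 over members and -0.17 over all tested transcripts. At an unadjusted p under 0.05 there were 1603 of the 6464 members and 8576 of the 51052 tested transcripts. The 10 TPM rule bears on the number of members.

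The count of 30 depended on single cultures. Leaving one out gave 0 limma calls without WT replicate 1 (886 members at an unadjusted p under 0.05), 1 without WT replicate 2, 10 without WT replicate 3, 11 without KO replicate 1 and 2 without KO replicate 2. Without KO replicate 3, the library nearest to WT, 2598 members were called, 534 higher and 2064 lower. With KO replicates 1 and 2 both left out, KO was 1 library per fraction with its spread assumed from the other groups, and 3 members were called. With only the 6 80S libraries in the fit, limma called 0 members, with 1614 at an unadjusted p under 0.05. The split of 60% lower moved to 73.9% of 230 calls after quantile normalization, 76.5% of 268 after median-of-ratios scaling and 99.9% of 3231 after scaling to the ERCC total, with medians over all transcripts of 0.03, -0.19 and -1.43. Rises were the majority in other settings: 14.3% of 7 calls were lower with only members fitted, 20% of 5 with a pseudocount of 0.1, 35.7% of 14 at a member limit of 20 TPM and 36.4% of 11 without KO replicate 1. With no filter on low values 50% of 20 were lower. The direction of the majority thus depended on the setting.

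**Figure D4:**
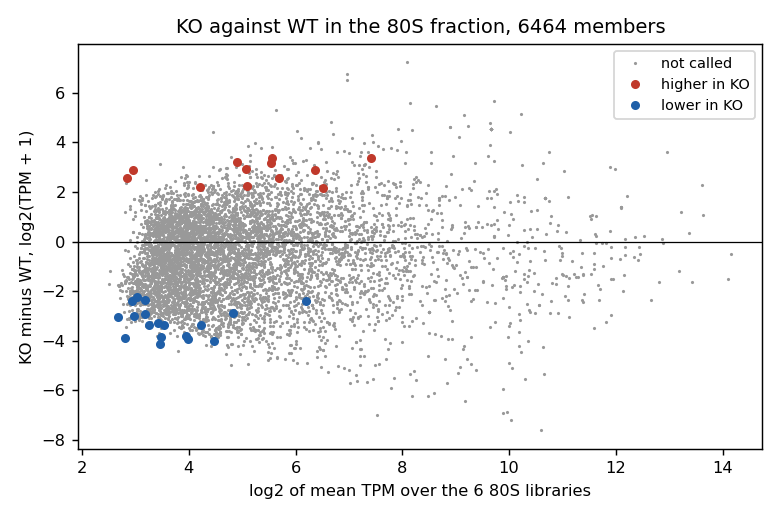
KO minus WT difference in the 80S fraction (vertical axis, log2(TPM + 1), means of 3 libraries) against log2 of the mean TPM over the 6 80S libraries for the 6464 members. Red (12) and blue (18) points passed limma with an adjusted p under 0.05; the points furthest from 0 are grey because they did not pass.

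The members called were not those with the largest differences. Differences ran from -7.61 to 7.22 over members, and the called ones from -4.12 to -2.22 and from 2.18 to 3.38. Of 47 members higher in KO by log2 4 or more, 0 were called by limma, with 38 at an unadjusted p under 0.05. Their median differences from WT were 4.98, 7.10 and 1.59 in KO replicates 1, 2 and 3, with a median SE of 1.55. Of 110 members lower by log2 4 or more, 2 were called, and 68 lay within log2 1 of WT in KO replicate 3. Their median differences were -6.80, -6.20 and -0.73, with a median SE of 1.94. In both sets replicates 1 and 2 lay far from WT and replicate 3 lay nearer to it.

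The 30 called members had all 3 KO values on one side of all 3 WT values, KO replicate 3 included. Among all members 1977 (30.6%) had no overlap, 810 higher (12.5%) and 1167 lower (18.1%) in KO. Among all tested transcripts the share was 19.9%, from 7.09% higher and 12.8% lower. The choice of members bears on this comparison, since 471 of them passed through one genotype alone.

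The 12 that rose went from a median of 7.27, 5.86 and 8.65 TPM in WT replicates 1, 2 and 3 to 82.9, 72.3 and 44.0 TPM in KO. Their median log2 difference was 2.89 (median SE 0.59, limma adjusted p from 0.00399 to 0.0496). KO replicate 3 was the KO library nearest to WT for 7 of the 12, and the lowest KO value was at least 2.11 times the highest WT value for each. Of the 12, 6 met the 10 TPM rule through the KO libraries alone and 3 met it in all 6 libraries. The 18 that fell went from medians of 18.6, 17.7 and 19.7 TPM in WT to a listed 0, 0.738 and 5.04 TPM in KO. Their median log2 difference was -3.32 (median SE 0.71, limma adjusted p from 0.0149 to 0.0454). KO replicate 3 was nearest to WT for 15 of the 18, and 12 of them were listed at 0 in at least 1 KO library. Of the 18, 15 met the rule through the WT libraries alone and 1 met it in all 6. For the 6 and the 15, a difference was given by the choice of members.

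The largest rise among the called members was that of ENST00000645377.1, which reached 10 TPM in all 6 libraries. It stood at 22.4, 18.3 and 24.2 TPM in WT 80S replicates 1, 2 and 3, and at 545, 339 and 68.3 TPM in KO. All KO values lay above WT, and replicate 3 was the lowest of them. The log2 difference was 3.38 (SE 0.80, limma adjusted p = 0.04183). It was 1.62 (limma adjusted p = 0.3885) in KO replicate 3 alone, and 0.51 (limma adjusted p = 0.6941) after ERCC scaling, so the call ended in both.

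The KO means of ENST00000645377.1 were above the WT means in the other 5 fractions too. KO stood at 746, 328 and 75.5 TPM in Polysome1 against 26.8, 22.5 and 25.7 in WT, a rise of 3.36 (SE 0.80, limma adjusted p = 0.01999). In 40S KO stood at 108, 106 and 19.1 TPM against 5.11, 8.52 and 16.1, which did not pass (limma adjusted p = 0.3676). In Input KO stood at 115, 40.2 and 53.6 TPM against 24.9, 34.4 and 33.1, with a log2 difference of 1.02 (limma adjusted p = 0.3716). The test of whether the 80S difference departs from the Input difference gave 2.36 (SE 1.13, limma adjusted p = 0.3033), so a change particular to monosomes was not shown.

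ENST00000645696.1 was the next, and here KO replicate 3 lay between the other KO libraries. It stood at 6.76, 1.48 and 10.8 TPM in WT 80S and at 195, 27.7 and 42.9 TPM in KO, with no overlap. It met the 10 TPM rule through all 3 KO libraries and 1 WT library. The log2 difference was 3.36 (SE 0.62, limma adjusted p = 0.008713). In KO replicate 3 alone it was 2.84 (limma adjusted p = 0.1978), and after ERCC scaling 0.70 (limma adjusted p = 0.6149). In Input it stood at 45.0, 51.1 and 41.8 TPM in KO against 9.34, 13.3 and 14.6 in WT, a rise of 1.83 (SE 0.62, limma adjusted p = 0.03665). In Polysome1 it stood at 119, 110 and 99.2 TPM against 12.2, 6.13 and 9.45, a rise of 3.47 (SE 0.62, limma adjusted p = 0.003974). The 3 KO cultures were close to each other in Input and Polysome1, which was not so for ENST00000645377.1. The 80S difference exceeded the Input difference by 1.53 (SE 0.88, limma adjusted p = 0.4155), which did not pass.

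The largest fall among the called members was that of ENST00000383056.7. It stood at 25.7, 19.9 and 19.4 TPM in WT 80S and at 0.00131, 1.15 and 5.67e-05 TPM in KO, so that all 3 KO libraries, replicate 3 included, were close to 0. It met the 10 TPM rule through the WT libraries alone and so had to differ by the way it was chosen, and its values are a description. The log2 difference was -4.12 (SE 0.80, limma adjusted p = 0.01522), and in KO replicate 3 alone it was -4.49 (limma adjusted p = 0.05159). KO values lay further from 0 in Polysome2, at 4.91, 5.97 and 4.19 TPM against 21.5, 16.7 and 17.7 in WT (limma adjusted p = 0.1746). In Input they were a listed 0, 6.22 and 19.3 TPM against 22.3, 18.3 and 35.0, a fall of 2.26 in log2 terms (SE 0.80, limma adjusted p = 0.04578). The tests of 80S against Input and against Polysome2 gave -1.86 (SE 1.14, limma adjusted p = 0.4577) and -2.41 (SE 1.14, limma adjusted p = 0.5396).

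ENST00000558945.5 had a WT profile with its highest mean in monosomes. Its WT means were 39.5 ± 6.17 TPM in 80S, 27.4 ± 2.31 in Input, 9.04 ± 5.38 in 40S, 5.53 ± 7.89 in the disome fraction, 0.761 ± 0.798 in Polysome1 and 0.404 ± 0.348 in Polysome2 (SD, n = 3). In 80S it stood at 45.9, 33.6 and 38.9 TPM in WT and at a listed 0, 0 and 14.2 TPM in KO, so that it met the 10 TPM rule in WT and in KO replicate 3. The log2 difference was -4.02 (SE 0.93, limma adjusted p = 0.03996). It was -1.40 (limma adjusted p = 0.8689) with replicate 3 as the only KO culture. In Input, KO stood at 2.82, 8.38 and 24.4 TPM against 28.2, 29.2 and 24.8, with a log2 difference of -1.55 (limma adjusted p = 0.2403). KO replicate 3 was level with WT in Input and below WT in 80S. The 80S difference departed from the Input difference by -2.47 (SE 1.32, limma adjusted p = 0.3738) and from the Polysome2 difference by -3.85 (SE 1.32, limma adjusted p = 0.336), and neither passed.

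**Figure D5:**
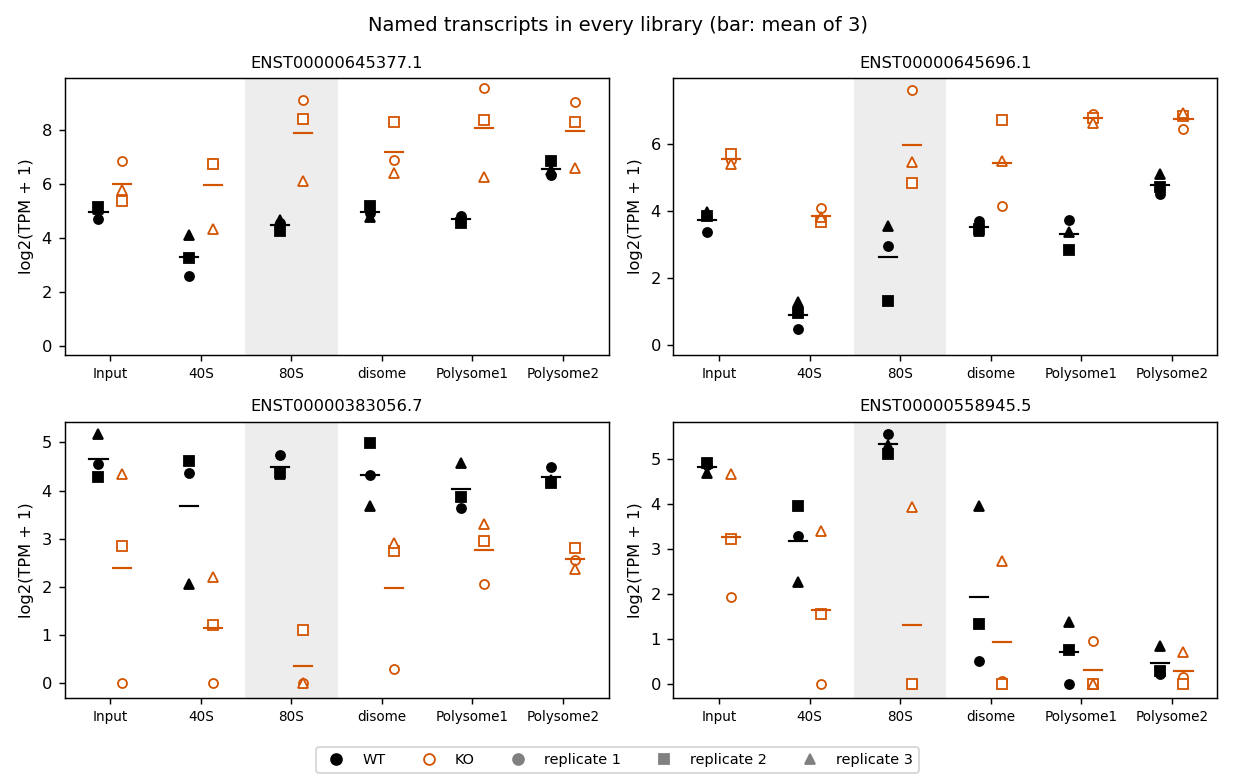
Levels of the 4 named transcripts (vertical axis, log2(TPM + 1)) in every WT (black, filled) and KO (orange, open) library by fraction, with the 80S fraction shaded, a symbol per replicate and a bar for the mean of 3. KO and WT do not overlap in the shaded column, and KO replicate 3 (triangles) is the KO library nearest to WT in 80S for ENST00000645377.1 and ENST00000558945.5.

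The called members were also set beside the other fractions. All fractions come from the same 6 cultures and share the estimate of the spread, so the comparisons are not independent, and each is given with its own values. The 12 that rose in 80S had median log2 differences of 1.17 (Input), 2.26 (40S), 1.54 (disome), 2.20 (Polysome1) and 1.34 (Polysome2). Of these 12, 8 also rose in Polysome1, 5 in Input and 1 each in 40S, disome and Polysome2. The 8 are 66.7% of the members that rose in 80S and 6.4% of the 125 that rose in Polysome1. The 18 that fell had medians of -1 (Input), -1.09 (40S), -2.06 (disome), -0.74 (Polysome1) and -0.02 (Polysome2). Of these 18, 3 also fell in disome, 2 in Input, 2 in Polysome1, 1 in Polysome2 and 0 in 40S by limma, where 4 were lower at an unadjusted p under 0.05. Over all tested transcripts the share called in either direction was 20% for Input, 0.0235% for 40S, 2.78% for disome, 5.42% for Polysome1 and 5.52% for Polysome2. By direction, 1008 of these 51052 transcripts rose and 9184 fell in Input, and 809 rose and 1960 fell in Polysome1. In 40S 7 rose and 5 fell, in disome 21 and 1399, and in Polysome2 970 and 1847. Among the 6464 members, the numbers were 594 for Input, 6 for 40S, 287 for disome, 193 for Polysome1 and 247 for Polysome2.

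In WT, the members that rose and those that fell had different profiles over the gradient. The 12 that rose had a median WT level of 12.3 TPM in Input, 6.47 in 80S, 14.3 in Polysome1 and 27.6 in Polysome2. The 18 that fell had 5.69 TPM in Input and 20.5 in 80S, then 10.1 for disome, 3.37 for Polysome1 and 0.883 for Polysome2. All members had 23.3 TPM in Input, 23.9 in 80S and 32.7 in Polysome2. The WT 80S level is part of the contrast that chose both sets, so the peak or dip at 80S is a description only. In KO the 12 had median levels of 73.5 TPM in 80S and 75.3 TPM in Polysome2, and the 18 had 1.99 and 1.02 TPM.

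Whether the KO difference in 80S departs from that in Input was tested as an interaction in the same model. By limma 33 members were called (0.511%), 30 negative and 3 positive, against 3.87% of all tested transcripts, of which 3.7% were positive and 0.178% negative. Of the 30 negative members 29 rose in KO Input, and 0 of the 30 were called in 80S by limma, with 4 at an unadjusted p under 0.05. Their median levels in Input were 0.00221, 0.924 and 0.0732 TPM in WT and 49.7, 63.8 and 14.2 TPM in KO. In 80S the medians were 40.9, 38.7 and 50 TPM in WT and 31.9, 44.9 and 44.3 TPM in KO. By these medians the 30 were near 0 in WT Input and present in monosomes of both genotypes. The Input values entered the test that chose the called members, so Input levels here are a description only. Presence in monosomes was set by the 10 TPM rule, which also bears on the split between negative and positive members. Their median log2 difference was 4.54 in Input and 0.20 in 80S, where 17 were higher and 13 lower in KO by value. The 3 positive members had median Input levels of 39.7, 40 and 33.8 TPM in WT and 5.57, 5.82 and 26.7 TPM in KO. Their 80S medians were 9.71, 10.8 and 5.19 TPM in WT and 15.8, 20.8 and 23.1 TPM in KO. The count was 330 without KO replicate 3, and 1 with KO replicates 1 and 2 both left out. It was 8, 6, 19 and 4 without WT replicate 1, WT replicate 3, KO replicate 1 and KO replicate 2.

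Differences between 80S and the other gradient fractions were few. The same interaction against 40S, disome and Polysome1 called 0 members each by limma, with 228, 155 and 113 at an unadjusted p under 0.05, and 2 members against Polysome2, both negative. Over all tested transcripts the shares called were 0.00196%, 0.00196%, 0.00392% and 0.0901% against 40S, disome, Polysome1 and Polysome2. An unadjusted p under 0.05 was found for 1578, 1551 and 1889 of all 51052 tested transcripts against 40S, disome and Polysome1. The 228, 155 and 113 members were not tested against these numbers and are not read as differences. None of the 30 members called in 80S passed any of these tests, or the test against Input, by limma. An unadjusted p under 0.05 in at least 1 of the 5 was found for 23 of them. The 80S difference that chose the 30 is part of each of these tests, which favours small p-values. The 23 are therefore no sign of a change particular to monosomes. A p that misses the threshold does not show that the fractions changed alike. Without KO replicate 3, 155 members were called in at least 1 of these 4 tests, and without WT replicate 1, WT replicate 3, KO replicate 1 or KO replicate 2 limma called 0, with 439, 573, 1192 and 677 at an unadjusted p under 0.05, and 1 without WT replicate 2.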

How the data were processed

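Per the labels' protocols, a TruSeq stranded mRNA kit was used and both ends were read over 75 nt. The authors deposited TPM per transcript, and the submitters' processing notes name kallisto, sleuth and hg19, without versions. TPM keeps no depth, so no counting interval is given. The gene table provided holds 0 Ensembl IDs for 59792 genes, so 25 gene lists were not used. Members and lists were chosen with earlier results of these data known.

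Groups came from sample titles. ERCC rows were left out of the fits. limma 3.58.1 in R 4.3.3 (variance trend, 24 residual degrees of freedom, pseudocount 1) gave the adjusted p-values across transcripts, with fewer degrees of freedom where libraries were left out. The 6 libraries of a culture entered it as if independent. Composition was compared by two-sided exact permutation tests, adjusted over 5. The named transcripts were the 2 largest rises and 2 largest falls among called members without overlap, the rule for tables without gene names. The model was tested on simulated data with independent noise in every library. In them the libraries of a culture were not correlated and no KO replicate stood apart, unlike in the data here. Python 3.11.15, pandas 2.3.3 and scipy 1.17.1 were used for the tables.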

Additional observations from a re-analysis of the deposited data

Results flagged for a closer look

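The KO difference in 80S departed from that in Input for 33 members (0.511%) by the limma interaction test, of which 30 were negative. Over all tested transcripts 3.87% were called, 3.7% positive and 0.178% negative. Against Polysome2 the 80S difference departed for 2 members (0.0309%), with 0.0901% called over all tested transcripts. The ERCC rows, which the comparison of transcripts leaves out, averaged 244 TPM in KO 80S, above all WT 80S libraries (18.5 to 36.5 TPM). Scaling to them moved the 80S calls from 30 to 3231.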

How the results depend on the processing

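In the order of the 80S difference (30 calls), the shift from Input (33) and the shift from any of the other 4 fractions (2), members called were 230, 142 and 42 after quantile normalization, 268, 72 and 5 with median-of-ratios factors, 3231, 1 and 170 after ERCC scaling, 7, 4 and 1 with only members fitted, 188, 187 and 82 with culture as a random block, 3325, 991 and 868 with library weights, and 3, 1 and 4 with KO replicates 1 and 2 left out. Leaving out single cultures gave 0 to 2598, 4 to 330 and 0 to 155. Same-numbered KO and WT 80S libraries did not deviate together from their genotype means (r = -0.13, -0.25 and -0.42). Pairs with unlike numbers had r from -0.35 to 0.39, and whether same-numbered samples belong together was not tested. The replicate number as a block gave 228, 56 and 8. With only the 80S libraries the 80S count was 0, and it was 0 with the replicate block there, a setting added after the data were seen. For the 80S difference and the other shifts, a pseudocount of 0.1 gave 5 and 1, a member limit of 5 TPM 72 and 5, and one of 20 TPM 14 and 1. Counts of 0 had 1614, 1336 and 886 members at an unadjusted p under 0.05 by limma (80S libraries, the block there, without WT replicate 1). The cause of these changes was not tested. The 4 named transcripts kept their direction in all 18 alternatives that refit the model. They were chosen for KO and WT values without overlap, so only a change of scale between libraries could have turned their direction. ENST00000645377.1 kept its call in 4 of the 18 alternatives, ENST00000558945.5 in 7 and ENST00000645696.1 in 11. ENST00000383056.7, which met the 10 TPM rule through the WT libraries alone, kept its call in 12. The difference in transcripts at 10 TPM ranged from -828 to 94 and was 796 with KO replicate 3 alone, and that in the top 10 share ranged from -1.24 to 2.21 and was -2.32. The log2 ERCC difference ranged from 2.43 to 3.41 and was 1.94 with KO replicate 3 alone. The sum over transcripts of a gene was not run. Depth is unknown, which limits what values near 0 can show.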
